A study of Mus musculus with 7 samples.

Results

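The 9 genes described here supply galactose and other sugars, in the activated form that glycosyltransferases use, to the Golgi. They were taken by name from the 23347 genes of a liver count table, by a rule that used no measured value. Earlier results of these data were known when they were chosen. *Galm*, *Galk1* and *Galt* belong to the Leloir pathway of galactose use, *Ugp2* and *Ugdh* make UDP-sugars, *Gne* opens the synthesis of sialic acid, and *Slc35a1*, *Slc35a2* and *Slc35a3* encode carriers of the Golgi membrane. The libraries came from whole livers of 7 male mice on a C57BL/6 background, 1 library per mouse. The 4 control mice were *B4galt1* flox/flox, with the gene flanked by recombination sites (the labels call them WT), and the 3 others were littermates labelled *B4galt1* hep-/- (B4galt1-HKO in the labels), in which Cre under the albumin promoter is meant to delete *B4galt1* in hepatocytes and not in other liver cells. Mice of both groups were between 6 and 8 weeks old when they were put on the CDAHFD, a choline-deficient, high-fat diet that brings on steatohepatitis, and they stayed on it for 15 weeks. Chow-fed mice were not analysed here.

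B4GALT1 is the Golgi enzyme that moves galactose from UDP-galactose onto *N*-acetylglucosamine at the ends of glycans, and sialic acid is often added next. One route to UDP-galactose starts from dietary galactose, which is turned to the right anomer, phosphorylated and exchanged against the glucose of UDP-glucose. The liver is the main site of galactose use in the body, and it also draws on UDP-glucose for glycogen and for the UDP-glucuronic acid with which it conjugates bilirubin and drugs. The comparison asks whether the mRNAs that feed the galactosylation and sialylation steps differed between flox/flox livers and livers labelled hep-/-.

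*B4galt1* itself (NCBI gene 14595) had 48.7, 53.0, 49.2 and 51.6 CPM in flox/flox livers 1 to 4 and 28.4, 23.9 and 53.7 CPM in livers 1 to 3 labelled hep-/-, where CPM is a gene's count relative to the total of its library after normalization by the trimmed mean of M-values (TMM). Liver 3 labelled hep-/- was above every flox/flox liver, so the gene did not separate the groups, and the direction of each result below is that of the libraries carrying the hep-/- label. *B4galt1* had a log2 fold change of -0.52 (SE 0.26, edgeR's Benjamini-Hochberg adjusted p = 0.181). Without liver 3 labelled hep-/- it was -0.96, past the threshold, and without liver 2 it was -0.30 (edgeR adjusted p = 0.461). With limma it was also called, at -0.67 on log2(FPKM + 1) (adjusted p = 0.0389) and -0.73 on log2(FPKM + 0.1) (adjusted p = 0.0382). On these FPKM scales the median of all genes also shifted, by -0.12 and -0.13 against the main test. Of 17 other fits, 3 called *B4galt1* lower. Adjusted p-values are from edgeR's quasi-likelihood F-test of all genes tested, corrected by Benjamini and Hochberg, unless another test is named. SE is the standard error.

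The promoters of *Galk1* and *Gne* are shown because these are the genes that passed the test. The sequences are from RefSeq on GRCm38.p6, and each window holds 250 bases before and 50 bases after an annotated transcription start, read 5′ to 3′ on the gene's strand. RefSeq windows were found for 8 of the 9 genes, 11 windows in all, and *Galm* had no entry. Capitals mark matches, on either strand, to 5 motifs, namely the GC box GGGCGG, the CCAAT box CCAAT, the TATA box TATAAA, the E-box CACGTG and the nuclear receptor half-site AGGTCA.
Galk1, chr11:116012670-116012969, minus strand: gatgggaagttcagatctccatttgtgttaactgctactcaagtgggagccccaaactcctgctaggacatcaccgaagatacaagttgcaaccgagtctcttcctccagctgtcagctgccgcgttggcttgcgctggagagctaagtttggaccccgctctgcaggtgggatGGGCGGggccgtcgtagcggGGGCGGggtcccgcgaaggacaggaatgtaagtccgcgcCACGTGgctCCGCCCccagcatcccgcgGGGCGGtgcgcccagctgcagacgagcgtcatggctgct
Gne, first start, chr4:44084128-44084427, minus strand: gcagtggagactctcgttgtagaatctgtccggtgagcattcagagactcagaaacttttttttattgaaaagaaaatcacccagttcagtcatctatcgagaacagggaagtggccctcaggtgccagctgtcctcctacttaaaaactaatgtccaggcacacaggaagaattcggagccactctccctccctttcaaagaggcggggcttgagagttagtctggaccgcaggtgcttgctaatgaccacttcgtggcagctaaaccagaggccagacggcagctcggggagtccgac
Gne, second start, chr4:44072668-44072967, minus strand: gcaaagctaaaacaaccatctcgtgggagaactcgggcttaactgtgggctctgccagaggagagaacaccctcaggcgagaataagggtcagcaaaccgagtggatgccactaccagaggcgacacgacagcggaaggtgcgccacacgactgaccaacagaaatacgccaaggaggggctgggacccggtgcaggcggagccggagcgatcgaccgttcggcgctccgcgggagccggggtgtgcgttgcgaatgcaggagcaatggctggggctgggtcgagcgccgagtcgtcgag
The *Galk1* window held 4 GC boxes and 1 E-box, and 62.7% of its bases were G or C. Neither *Gne* window held any of the 5 motifs, at GC contents of 51.3% and 63.0%, and the median of all 32544 RefSeq windows was 53.0%. No match in the printed windows overlapped another. A GC box was present in 7 of the 11 windows of these genes and in 35.9% of all windows, a CCAAT box in 2 and in 37.4%, a TATA box in 1 and in 13.6%, an E-box in 2 and in 7.17%, and a half-site in 1 and in 16.2%. A match is only a match of letters, and a window without one says nothing about the factor.

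Of the 9 genes, 2 were lower past the threshold in livers labelled hep-/-, *Galk1* and *Gne*, and the other 7 did not pass. Calls required an adjusted p under 0.05 together with an absolute log2 fold change over 0.58. Among all 15179 genes tested, 7.83% were called lower and 8.0% higher by the same rule. With edgeR, 0 of the 9 genes were called higher, and 0 were higher at an unadjusted p under 0.05, as with DESeq2, while 4 were lower at that level. The log2 fold change was below 0 for 8 of the 9, with a median of -0.51, against 0.02 over all genes tested. The groups did not overlap for 3 of the 9, all lower in livers labelled hep-/-, where 15.0% of all genes tested were lower without overlap and 13.6% higher. Each of the 9 genes passed the filter on low counts, and the lowest value of any of them in any mouse was 8.81 CPM, which compares with 0.0756 to 0.0980 CPM for 3 counts.

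**Figure D1:**
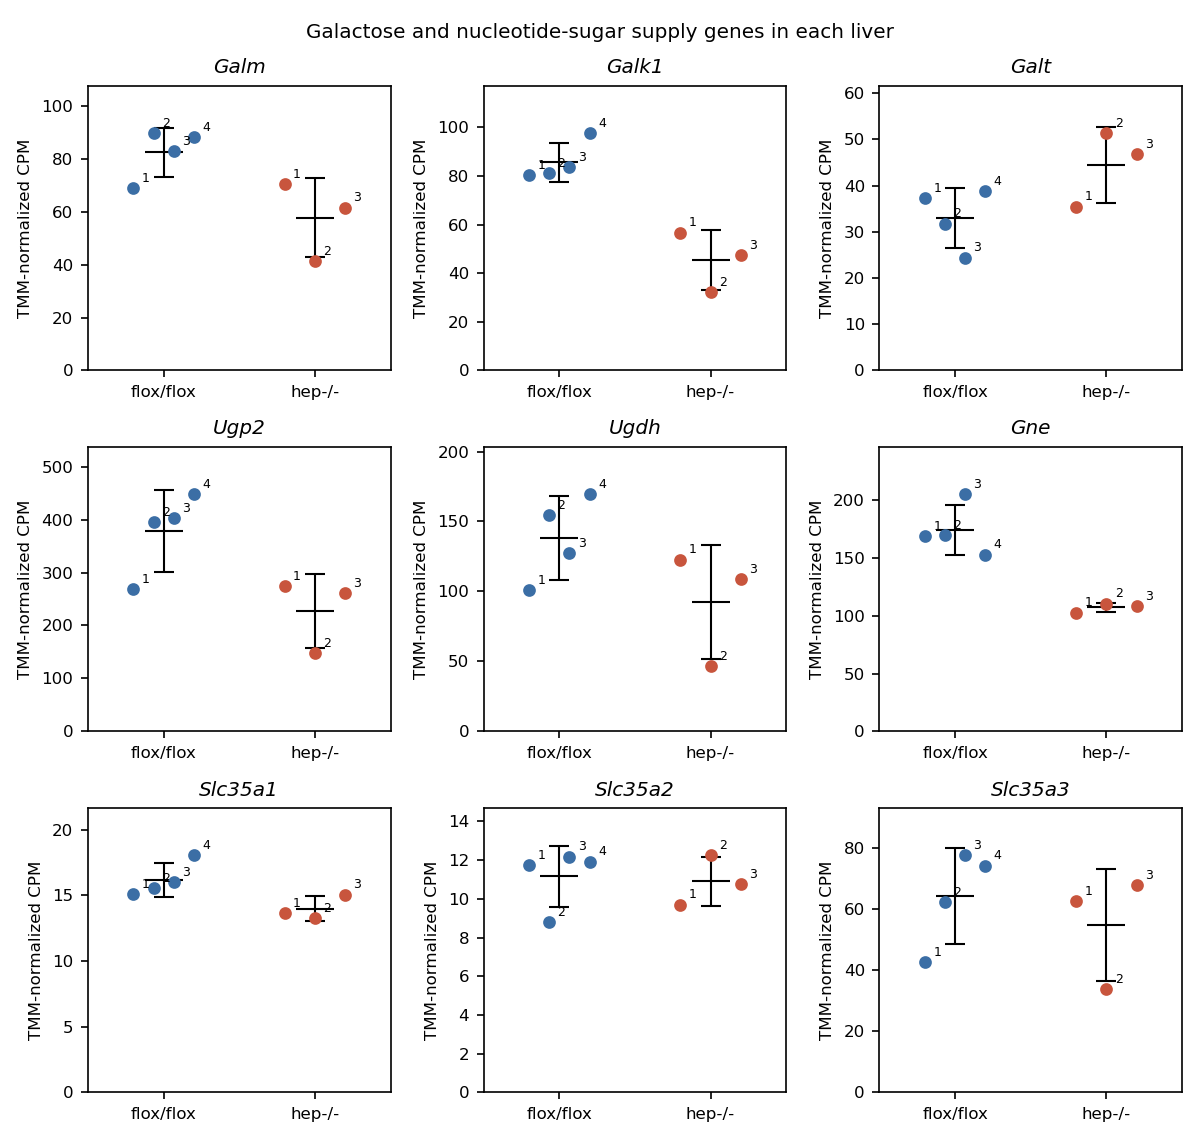
TMM-normalized CPM (vertical axes, starting at 0) of the 9 genes in each liver, with 4 flox/flox livers in blue and 3 livers labelled hep-/- in red, numbered by replicate; bars are the mean ± SD of each group. The red points lie below every blue point for *Galk1*, *Gne* and, by a narrow margin, *Slc35a1*. *Galt* is the gene whose red mean lies well above the blue one, 44.5 against 33.1 CPM.

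Within the Leloir pathway, the kinase *Galk1* fell and the steps before and after it did not pass the test. *Galk1* (NCBI gene 14635, chromosome 11), which phosphorylates galactose and so holds it in the cell, had 80.4, 81.1, 83.8 and 97.5 CPM in flox/flox livers 1 to 4 and 56.7, 32.3 and 47.5 CPM in livers 1 to 3 labelled hep-/-. All 3 livers labelled hep-/- were below every flox/flox liver, and liver 2 was the lowest. The means were 85.7 ± 8.02 CPM (SD, n = 4) and 45.5 ± 12.3 CPM (SD, n = 3), so that the level fell by 46.9%. This gave a log2 fold change of -0.91 (SE 0.22, edgeR's Benjamini-Hochberg adjusted p = 0.0183). *Galk1* was called in each of 7 fits with 1 mouse removed, with log2 fold changes from -1.12 to -0.72.

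*Galm* (NCBI gene 319625, chromosome 17), the mutarotase that converts the β form of galactose to the α form that the kinase accepts, had 69.1, 89.7, 83.0 and 88.3 CPM in flox/flox livers 1 to 4 and 70.5, 41.5 and 61.6 CPM in livers 1 to 3 labelled hep-/-. The groups overlapped by a narrow margin, since liver 1 labelled hep-/- was just above flox/flox liver 1 and below the other 3. The log2 fold change was -0.51 (SE 0.21, edgeR adjusted p = 0.119), with a 95% confidence interval from -0.98 to -0.04 that is not adjusted for the number of genes, and it was -0.32 without liver 2 labelled hep-/- (edgeR adjusted p = 0.329).

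*Galt* (NCBI gene 14430, chromosome 4), the transferase that exchanges galactose-1-phosphate against the glucose of UDP-glucose, had 37.2, 31.8, 24.4 and 38.8 CPM in flox/flox livers 1 to 4. In livers 1 to 3 labelled hep-/- it had 35.5, 51.3 and 46.7 CPM. Livers 2 and 3 labelled hep-/- were above every flox/flox liver, and liver 1 was within their range. Its log2 fold change of 0.43 was the sole one above 0 among the 9 genes and did not pass the test (SE 0.21, edgeR adjusted p = 0.179). In the GENCODE annotation of GRCm38, the exons of *Galt*, *Ugp2*, *Ugdh*, *Slc35a1* and *Slc35a3* overlap those of other genes and those of *Galk1*, *Galm*, *Slc35a2* and *Gne* do not. The shared bases were 659 for *Galt*, on the opposite strand, as they were for *Ugp2* (78) and *Slc35a1* (83), and were on the same strand for *Ugdh* (158) and *Slc35a3* (275). Reads from bases shared on the same strand cannot be told apart, and neither can those on opposite strands unless strand was counted, which is not given in the sources used here.

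Within each liver, the ratio of *Galt* to *Galk1* CPM set the steps side by side. It was 0.463, 0.392, 0.291 and 0.398 in flox/flox livers 1 to 4 and 0.6254, 1.59 and 0.984 in livers 1 to 3 labelled hep-/-. Every liver labelled hep-/- had a higher ratio than every flox/flox liver. On the log2 scale the ratio was -1.39 ± 0.28 (SD, n = 4) against -0.01 ± 0.67 (SD, n = 3), a difference of 1.38. The exact permutation test, two-sided, had p = 0.0286, which is the lowest possible for 4 mice and 3, and 0.114 after Benjamini-Hochberg adjustment over the 4 ratios tested. The difference was 1.04 without liver 2 labelled hep-/- and 1.72 without liver 1, and the means of these ratios rest on the CPM of both genes, one of which had already been called.

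**Figure D2:**
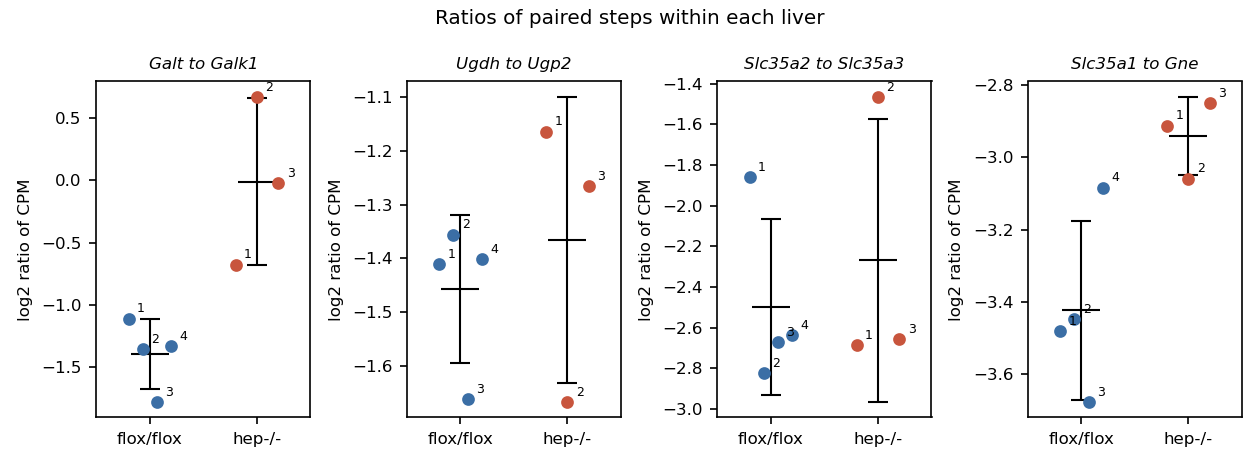
Log2 ratios of the CPM of 2 genes in the same liver (vertical axes, which do not start at 0 and differ between panels), with 4 flox/flox livers in blue and 3 livers labelled hep-/- in red, numbered by replicate, and mean ± SD in black. The groups are separate for *Galt* to *Galk1* and for *Slc35a1* to *Gne*, with differences of 1.38 and 0.48, and overlap for the other ratios.

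The UDP-sugar enzymes had lower means in livers labelled hep-/-, and neither passed the test. *Ugp2* (NCBI gene 216558, chromosome 11), which makes UDP-glucose from glucose-1-phosphate and UTP, had 269, 396, 402 and 448 CPM in flox/flox livers 1 to 4 and 275, 148 and 261 CPM in livers 1 to 3 labelled hep-/-. Flox/flox liver 1 lay among the livers labelled hep-/-, and the other 3 flox/flox livers were above all of them. The means were 379 ± 76.8 CPM (SD, n = 4) and 228 ± 69.8 CPM (SD, n = 3), a log2 fold change of -0.73 (SE 0.27, edgeR's Benjamini-Hochberg adjusted p = 0.0799). The gene passed the threshold when flox/flox liver 1 was left out, at -0.86 (adjusted p = 0.0488), and with DESeq2 (adjusted p = 0.0366). Without liver 2 labelled hep-/- the log2 fold change was -0.50.

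*Ugdh* (NCBI gene 22235, chromosome 5), which oxidizes UDP-glucose to UDP-glucuronic acid, had 101, 155, 127 and 169 CPM in flox/flox livers 1 to 4 and 123, 46.5 and 109 CPM in livers 1 to 3 labelled hep-/-. Livers 1 and 3 labelled hep-/- were within the flox/flox range, and liver 2 was the lowest of all 7 mice. The log2 fold change of -0.58 did not pass (SE 0.31, edgeR adjusted p = 0.220), and it was -0.26 without that liver. The ratio of *Ugdh* to *Ugp2* was between 0.316 and 0.391 in flox/flox livers and between 0.315 and 0.446 in livers labelled hep-/-. On the log2 scale it differed by 0.09 (two-sided exact permutation test, p = 0.629), and by -0.01 without liver 1 labelled hep-/-.

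*Gne* fell in the sialic acid route. *Gne* (NCBI gene 50798, chromosome 4), whose enzyme turns UDP-*N*-acetylglucosamine into *N*-acetylmannosamine and phosphorylates it, the committed step toward sialic acid, had 169, 170, 205 and 153 CPM in flox/flox livers 1 to 4. In livers 1 to 3 labelled hep-/- it had 103, 111 and 109 CPM. The livers labelled hep-/- were close to each other and all were below the lowest flox/flox liver. The means were 174 ± 22.0 CPM (SD, n = 4) and 107 ± 3.997 CPM (SD, n = 3), so that the level fell by 38.4%, with a log2 fold change of -0.70 (SE 0.18, edgeR's Benjamini-Hochberg adjusted p = 0.0275). The adjusted p of *Gne* rose to 0.0764 without flox/flox liver 2 (log2 fold change -0.71), to 0.0673 without flox/flox liver 3 (-0.61) and to 0.0690 without liver 1 labelled hep-/- (-0.68), all from the same edgeR test. It was called in the other 4 fits with 1 mouse removed.

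The Golgi carriers did not pass the test. *Slc35a1* (NCBI gene 24060, chromosome 4), the carrier of CMP-sialic acid, had 15.1, 15.6, 16.0 and 18.1 CPM in flox/flox livers 1 to 4 and 13.7, 13.3 and 15.1 CPM in livers 1 to 3 labelled hep-/-. The groups did not overlap, but the nearest livers, flox/flox liver 1 and liver 3 labelled hep-/-, both rounded to 15.1 CPM. With a log2 fold change of -0.21, *Slc35a1* did not pass (SE 0.18, edgeR's Benjamini-Hochberg adjusted p = 0.441), with a 95% confidence interval from -0.60 to 0.18.

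*Slc35a2* (NCBI gene 22232, chromosome X), the carrier that brings UDP-galactose, the donor used by B4GALT1, into the Golgi, had 11.8, 8.81, 12.2 and 11.9 CPM in flox/flox livers 1 to 4 and 9.71, 12.2 and 10.8 CPM in livers 1 to 3 labelled hep-/-. The values of the groups were interleaved. Its log2 fold change was -0.03, with a 95% confidence interval from -0.49 to 0.42 (edgeR adjusted p = 0.927), and its sign turned without flox/flox liver 3 (0.01) and without liver 1 labelled hep-/- (0.03). *Slc35a3* (NCBI gene 229782, chromosome 3), a carrier of UDP-*N*-acetylglucosamine, had 42.7, 62.3, 77.5 and 74.2 CPM in flox/flox livers 1 to 4 and 62.5, 33.8 and 67.9 CPM in livers 1 to 3 labelled hep-/-. Liver 2 labelled hep-/- and flox/flox liver 1 were the lowest. The difference on the log2 scale was -0.23, with a 95% confidence interval from -0.83 to 0.37 (edgeR adjusted p = 0.591), and it was 0.02 without liver 2 labelled hep-/-.

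The ratio of *Slc35a2* to *Slc35a3* overlapped between the groups, at 0.141 to 0.275 in flox/flox livers and 0.155 to 0.362 in livers labelled hep-/-. It differed by 0.23 on the log2 scale (two-sided exact permutation test, p = 0.571), and by -0.17 without liver 2 labelled hep-/-. The ratio of *Slc35a1* to *Gne* was 0.0895, 0.0916, 0.0781 and 0.118 in flox/flox livers 1 to 4 and 0.133, 0.120 and 0.139 in livers 1 to 3 labelled hep-/-. The groups did not overlap, and flox/flox liver 4 was the nearest to the livers labelled hep-/-. The log2 difference was 0.48, with p = 0.0571 in the exact permutation test (two-sided), or 0.114 after adjustment over the 4 ratios.

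**Figure D3:**
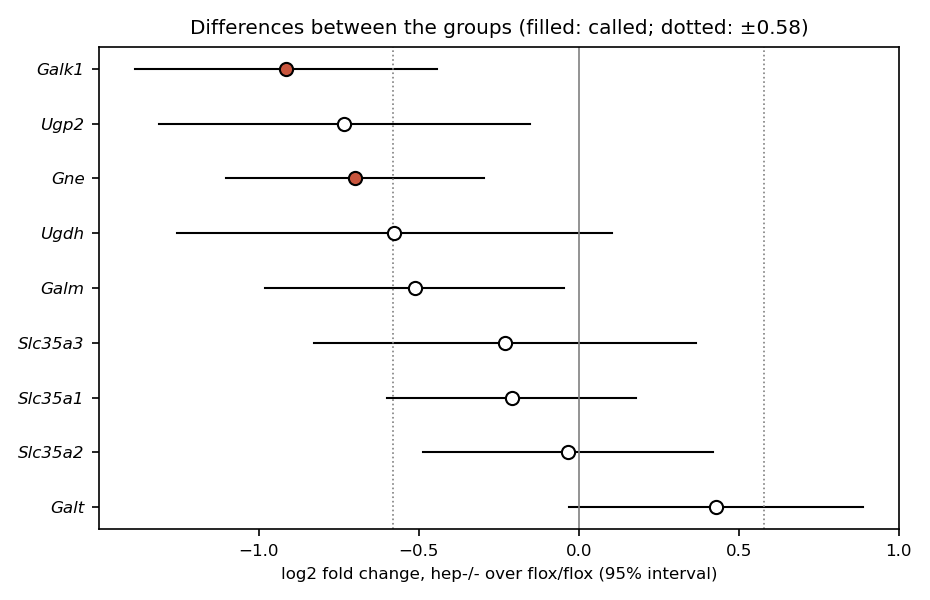
Log2 fold change of each of the 9 genes, livers labelled hep-/- over flox/flox livers (horizontal axis), with 95% confidence intervals that are not adjusted for the number of genes; filled points were called and dotted lines mark a log2 fold change of 0.58 in either direction. *Galk1* at -0.91 and *Gne* at -0.70 are the filled points, and *Galt* at 0.43 is alone on the right of 0.

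Compared per length, the mean levels of the 6 enzymes stood above those of the 3 Golgi carriers in both groups. CPM values were divided by the gene lengths behind the authors' FPKM values. In flox/flox livers *Ugp2* was highest at 122 ± 24.8 CPM per kilobase (SD, n = 4), and its range overlapped that of no other gene. *Galk1* at 56.9 and *Ugdh* at 55.0 CPM per kilobase overlapped each other, as did *Galm* at 34.7 and *Gne* at 28.7. *Galt* at 16.4, *B4galt1* at 12.8 and *Slc35a3* at 11.1 CPM per kilobase followed, neighbours in this order overlapping, and *Slc35a2* at 3.50 and *Slc35a1* at 2.65 were lowest and overlapped. In livers labelled hep-/- *Ugp2* was still highest, at 73.5 ± 22.5 CPM per kilobase (SD, n = 3), but each neighbour from *Ugp2* down through *Ugdh*, *Galk1*, *Galm*, *Galt* and *Gne* overlapped the next. *Gne* was at 17.7 and *Galt* at 22.0 CPM per kilobase, in the opposite order to flox/flox livers, with overlapping ranges. *Slc35a2* at 3.41 and *Slc35a1* at 2.29 CPM per kilobase remained lowest and did not overlap each other.

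**Figure D4:**
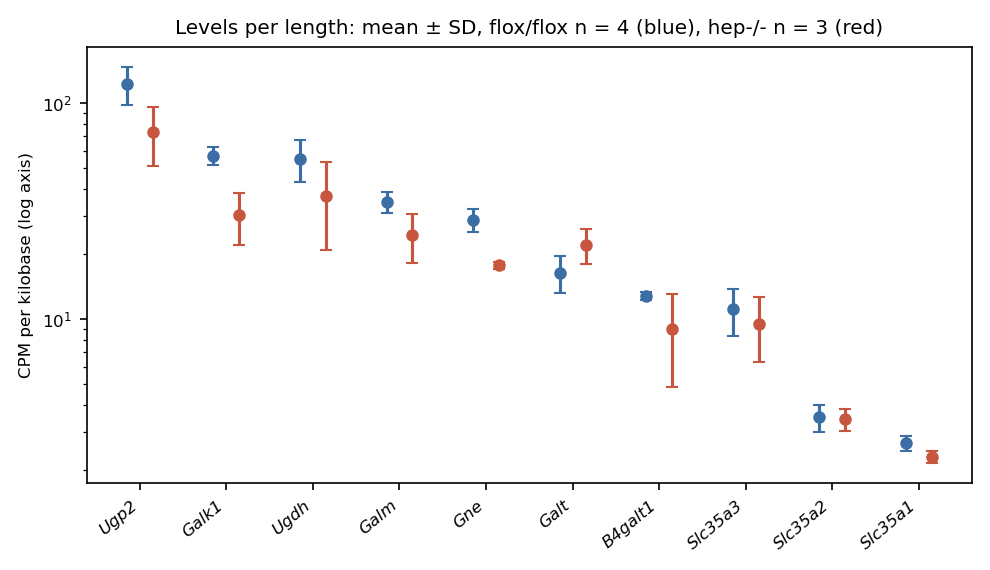
Level of the 9 genes and of *B4galt1* in CPM per kilobase of gene length (vertical log axis), mean ± SD, with 4 flox/flox livers in blue and 3 livers labelled hep-/- in red. *Ugp2* is highest at 122 and 73.5 CPM per kilobase, and *Slc35a1* lowest at 2.65 and 2.29.

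For most of the 9 genes, 1 liver of each group was at the low end. Liver 2 labelled hep-/- had the lowest value of all 7 mice for 6 of the 9 genes and the highest for 2, *Galt* and *Slc35a2*. Flox/flox liver 1 had the lowest flox/flox value for 6. Across all genes, the deviations of these 2 livers from their group means had a correlation of 0.59, given as a description. Without both livers *Galk1* was called at -0.75, and *Gne* had -0.74 (edgeR adjusted p = 0.0511), so that 1 of the 9 genes was called in place of 2.

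To describe which genes followed each other over the 7 livers, each gene's log2 CPM was centred on its own mean, and the root mean square difference between 2 genes was taken. Among the 9 genes, *Galm* and *Ugp2* were closest at 0.169, followed by *Ugp2* and *Ugdh* at 0.175, and *Galt* and *Ugdh* were farthest apart at 0.810. *Galt* was nearest to *Slc35a2*, at 0.344. Over the 8383 genes with a mean of at least 10 CPM, the nearest to *Galk1* were *Emd*, which encodes the nuclear envelope protein emerin, at 0.0781 and *Camk1d*, a calmodulin-dependent kinase, at 0.105. *Emd* had 17.3 ± 1.01 CPM (SD, n = 4) and 9.55 ± 2.10 CPM (SD, n = 3), and *Camk1d* 31.1 ± 0.761 CPM (SD, n = 4) and 15.7 ± 4.08 CPM (SD, n = 3). The nearest to *Gne* were *Abcc3*, an export pump for organic anions, at 0.0493 with 223 ± 36.0 CPM (SD, n = 4) and 134 ± 1.72 CPM (SD, n = 3), and *Rbpj*, the transcription factor of Notch signalling, at 0.0522 with 16.2 ± 2.62 CPM (SD, n = 4) and 9.87 ± 0.0860 CPM (SD, n = 3). These distances include the difference between the groups, so genes with a similar fold change are near each other by construction.

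The wider set of nucleotide-sugar genes, of which 45 were counted here and 44 tested, held 8 called lower in livers labelled hep-/-, beside 7.83% of all genes tested. Their median log2 fold change was -0.17, with 31 below 0 and 13 above. For 11 of them the livers labelled hep-/- were lower without overlap, beside 15.0% of all genes tested, and for 2, *Pgm2* and *Slc35e2*, they were higher, beside 13.6%. Of these 44 alone, which are not the whole list, edgeR called 0 higher, as did DESeq2, beside 8.0% of all genes tested, and 3 were higher at an unadjusted p under 0.05 with edgeR. *Slc35d3* was not tested because its counts were too low. Of the 6 genes of UDP-galactose and UDP-sugar supply, 2 were called lower, and the median of their log2 fold changes was -0.60. Of the 10 hexosamine genes 1 was called lower, as was 1 of 5 sialic acid genes, 1 of 9 GDP-sugar genes and 3 of 14 other Slc35 carriers.

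*Pgm1*, the phosphoglucomutase that supplies glucose-1-phosphate to *Ugp2*, had 178, 205, 203 and 189 CPM in flox/flox livers 1 to 4 and 90.5, 61.4 and 121 CPM in livers 1 to 3 labelled hep-/-. *Galk2*, which phosphorylates *N*-acetylgalactosamine, had 16.2, 17.3, 23.3 and 17.8 CPM against 10.8, 6.42 and 9.74 CPM. *Uap1l1*, related in sequence to the enzyme that makes UDP-*N*-acetylglucosamine, had 62.2, 58.3, 62.7 and 67.6 CPM against 33.0, 24.3 and 28.4 CPM. In each of these genes all 3 livers labelled hep-/- were below every flox/flox liver. The log2 fold changes were -1.09 for *Pgm1* (edgeR's Benjamini-Hochberg adjusted p = 0.0133), -1.05 for *Galk2* (adjusted p = 0.0150) and -1.14 for *Uap1l1* (adjusted p = 0.00434). All 3 were called whichever mouse was removed.

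Downstream of *Gne* in the sialic acid route, *Cmas*, which activates sialic acid to CMP-sialic acid, had 40.5, 50.8, 53.1 and 52.0 CPM in flox/flox livers 1 to 4 and 29.3, 27.0 and 32.3 CPM in livers 1 to 3 labelled hep-/-. The groups did not overlap, and the log2 fold change was -0.73 (SE 0.18, edgeR's Benjamini-Hochberg adjusted p = 0.0202). The call was lost without flox/flox liver 2 (adjusted p = 0.0639) and without liver 2 labelled hep-/- (adjusted p = 0.0575). The steps between these genes did not pass. *Nans*, the sialic acid synthase, was at -0.22 on the log2 scale with overlapping groups (adjusted p = 0.508), and *Nanp*, the phosphatase, was low in all livers, between 0.0753 and 1.06 CPM, with 0.17 (adjusted p = 0.905). Upstream, *Pgm3* and *Uap1*, which make UDP-*N*-acetylglucosamine, had log2 fold changes of -0.12 (adjusted p = 0.732) and -0.03 (adjusted p = 0.946).

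*Gfus*, which completes the synthesis of GDP-fucose, averaged 23.7 ± 1.76 CPM (SD, n = 4) without the deletion and 13.5 ± 3.54 CPM (SD, n = 3) under the hep-/- label, with a log2 fold change of -0.81 (edgeR's Benjamini-Hochberg adjusted p = 0.0270). Its call was lost without flox/flox liver 2 (adjusted p = 0.0807), flox/flox liver 3 (0.0513) or liver 1 labelled hep-/- (0.0714). For *Slc35b2*, which carries the sulfate donor PAPS and no sugar, the log2 fold change was -0.71 (adjusted p = 0.0281), *Slc35c2* -0.66 (adjusted p = 0.0316) and *Slc35d2*, a carrier of UDP-*N*-acetylglucosamine, -0.79 (adjusted p = 0.0261). *Slc35b2* and *Slc35c2* each passed in 2 of the 7 one-mouse-out fits, those without flox/flox liver 1 or 3, and *Slc35d2* in 3, those and the fit without liver 1 labelled hep-/-. Over the 44 genes, the count called was 3 without flox/flox liver 2, 5 without flox/flox liver 4, 5 without liver 1 labelled hep-/- and 4 without liver 2 of that label, against 8 with all mice.

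**Figure D5:**
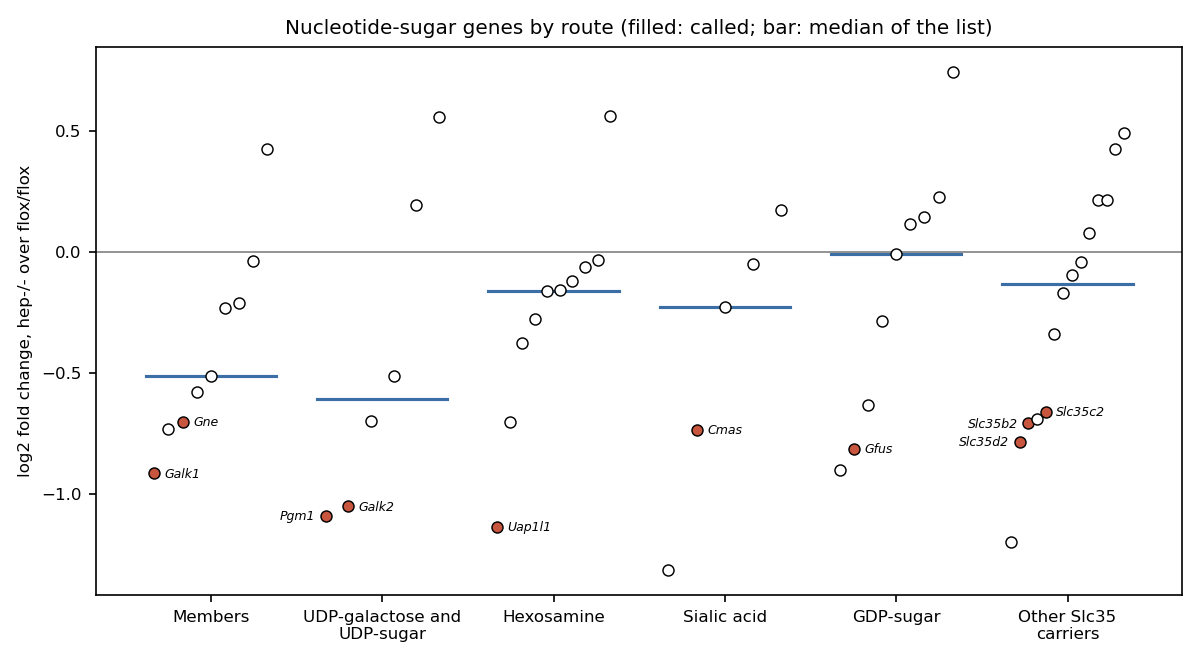
Log2 fold change, livers labelled hep-/- over flox/flox livers (vertical axis), of the 9 genes and of 44 other nucleotide-sugar genes grouped by route (horizontal axis); each point is a gene, filled where called and named, and the blue bar is the median of its list. The medians are -0.51 for the 9 genes, -0.60 for UDP-galactose and UDP-sugar supply, -0.16 for hexosamine, -0.22 for sialic acid, -0.01 for GDP-sugar and -0.13 for the other carriers.

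Several features of the libraries moved with the group label. Total counts were 37838654 to 39668509 in flox/flox livers and 30608271 to 34586588 in livers labelled hep-/-, and the share of counts from 13 mitochondrially encoded genes was 3.88% to 8.0% against 14.4% to 22.6%. With those genes left out, *Galk1* and *Gne* were still the 2 genes called among the 9. Of 10 macrophage markers, 6 were called lower, and their summed level was 1129 to 2489 CPM in flox/flox livers and 521 to 585 CPM in livers labelled hep-/-, with no marker at 0 in any liver. Of 10 hepatocyte markers 1 was called lower, and their sums of 91339 to 131348 CPM and 99882 to 158863 CPM overlapped. Of 10 stellate cell and fibroblast markers 1 was called lower (937 to 1441 CPM and 820 to 1398 CPM), as was 1 of 8 endothelial markers (80.9 to 342 CPM and 121 to 139 CPM). Of 8 cholangiocyte markers, edgeR called 0, as did DESeq2, and 0 had an unadjusted p under 0.05. Their sum was 268 to 678 CPM in flox/flox livers and 277 to 919 CPM in livers labelled hep-/-, highest in liver 2 of the latter. Of 8 lymphocyte markers, edgeR called 0 and DESeq2 called 1 higher, 1 had an unadjusted p under 0.05 with edgeR, and the sums were 51.5 to 83.6 CPM and 72.1 to 123 CPM. The part of these differences in the values of the 9 genes was not tested, and in whole liver fewer cells of a type and less RNA per cell cannot be told apart.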

How the data were processed

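RNA was extracted with TRIzol from the livers of 7 mice, and libraries were made with a VAHTS Universal V6 kit and sequenced by OE Biotech, 1 library per mouse. The authors deposited counts, whole numbers per gene that they had not normalized, and FPKM values for each of these genes in each mouse. The submitters' processing notes name fastp, HISAT2, HTSeq, DESeq2, R 3.2.0 and the build GRCm39, without their roles. The authors' methods name DESeq2 for differential expression and R for enrichment. The annotation and the strand setting are not given in the sources used here. Promoter windows and overlaps between genes refer to GRCm38, and chromosomes likewise, so no coordinates of the counted genes are given.

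The deposited counts were filtered with filterByExpr, at a minimum count of 10 and a minimum total of 15, and 15179 of 23347 genes remained. Libraries were scaled by TMM, and edgeR 4.0.16 (R 4.3.3) fitted a quasi-likelihood model with no term but the group. Its F-test p-values were adjusted by Benjamini-Hochberg over all genes tested. The common biological coefficient of variation was 0.301. Standard errors were computed from the F statistic. Ratios of 2 genes were compared with the exact permutation test of scipy 1.17.1, two-sided, on the difference of means. The level that 3 counts give in a library covers counting error only. No 2 libraries were copies of each other, the smallest chi-square between counts of a pair being 60.3 per gene, and only the labels tell that each is a separate mouse.

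The genes, the lists and the tests were chosen with earlier results of these data known. The text names the 9 genes, every called gene of the wider nucleotide-sugar list, *Pgm3*, *Uap1*, *Nans*, *Cmas* and *Nanp* whatever their values, *B4galt1*, and for each called gene of the 9 the 2 nearest by profile. *Slc35d3*, *Pgm2*, *Slc35e2* and *Fcsk* were named after their values were seen. Some genes are not reported here, and counts over the wider list leave them out. Alternatives were RLE or upper-quartile normalization, DESeq2 1.42.0, other filters on low counts, leaving out mitochondrially encoded genes, limma 3.58.1 with FPKM on a log2 scale (pseudocounts of 1 and 0.1, FPKM of at least 1 in 3 mice), a block for the replicate number, fold change thresholds of 0 and 1, group medians for ratios and each mouse left out. Leaving out flox/flox replicate 1 and hep-/- replicate 2 together was added after seeing the data. Scripts were first tested on simulated data.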

Additional observations from a re-analysis of the deposited data

Results flagged for a closer look

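In 33 groups of 4 flox/flox livers tested, 1 for each ratio and each named gene other than *Slc35d3*, 3 had a liver farther from the others than Dixon's test at the 95% level allows, where chance alone gives about 1 in 20. *Slc35a2* had 8.81 CPM in flox/flox replicate 2, and the other 3 flox/flox livers had 11.8 to 12.2 CPM. *Nanp* had 1.06 CPM in flox/flox replicate 1 and 0.0753 to 0.226 CPM in the others. *Pgm2* had 9.38 CPM in flox/flox replicate 1 and 14.3 to 14.4 CPM in the others. Groups of 3 livers were not tested.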

How the results depend on the processing

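Of the 9 genes, 2 were called in the main test. The count was 5 with limma on log2(FPKM + 1) and 5 on log2(FPKM + 0.1), where *Galm*, *Ugp2* and *Ugdh* were added (-0.64, -0.88 and -0.77 on the former), 1 without flox/flox replicate 1 and hep-/- replicate 2 together, and 0 with edgeR at a fold change threshold of 1 on the log2 scale, since the fold change furthest from 0 was -0.91. It ranged from 1 to 3 when each mouse was left out. On the FPKM scales the median of all genes shifted by -0.12 and -0.13, and 24.5% and 23.6% of calls were higher against 50.5% in the main test. Of the 44 other genes, 8 were called in the main test, 13 on log2(FPKM + 0.1), 5 without the 2 mice together, 3 at a threshold of 1 and 3 to 9 with each mouse left out, where the 9, without flox/flox replicate 1, were 8 lower and 1 higher (*Fcsk*). Over all genes the count ranged from 885 to 2396 with each mouse left out, against 2404.

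The labels do not say whether equal replicate numbers mark paired mice. The correlations of deviations of same-numbered livers were -0.46, -0.13 and 0.10, and with so few mice they cannot decide it. With the number as a block, 0 of the 9 genes were called by edgeR (2 at an unadjusted p under 0.05, and 3 called by DESeq2 without the block) and 3 of the 44 others, with 1267 over all genes.

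The sign of *Slc35a2* turned with upper-quartile normalization (0.0049) and with the block (0.0056), and ranged from -0.13 to 0.0327 with each mouse left out, as *Slc35a3* did from -0.42 to 0.0218. The log2 difference of the ratio of *Galt* to *Galk1* was 1.32 between group medians, with an unadjusted p of 0.0571 against 0.0286 between means (0.114 after adjustment over the 4 ratios), and 1.04 to 1.72 with a mouse left out, where the permutation test cannot reach 0.05. That of *Slc35a2* to *Slc35a3* was -0.0032 between medians and -0.17 to 0.44 with a mouse left out, and that of *Ugdh* to *Ugp2* -0.0087 to 0.24. The causes were not tested. Among the 17 other fits, which leave out the change of fold threshold, *Galk1* was called in 16 and *Gne* in 12. With 3 and 4 mice, 1 mouse can move a call.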
